A study of Mus musculus with 18 samples.

Results

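Livers of mice with a single intact copy of Otub2 were compared with livers of mice with both copies, over 7 of the 18 libraries of the series. The HET group was 5 livers labelled OTUB2 +/-, and the WT group was 2 livers labelled OTUB2 +/+. The genes are all those with at least 10 counts in 2 or more livers, 5377 of the 55291 listed. The series also holds pancreas libraries, and its title concerns the pancreatic beta cell. RNA came from whole liver, and the labels do not state sex, age or strain for the liver donors, nor the deleted part of Otub2. Libraries were made by a bulk form of MARS-seq, which reads the 3′ end of transcripts, so a count does not scale with transcript length. A level is given in CPM, the counts of a gene per 1000000 counts of its library, in the order HET 1, HET 2, HET 3, HET 4 and HET 5 where 5 values follow each other.

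Otub2 encodes a deubiquitinase of the OTU (ovarian tumour domain) family, an enzyme that removes ubiquitin from other proteins. Hepatocytes make most of the protein of blood plasma and fold it in the endoplasmic reticulum. They clear ammonia as urea, make and burn fat and sugar, turn cholesterol into bile acids and oxidise and conjugate foreign compounds. These tasks are divided along the liver lobule: cells near the portal vein (periportal) lead in urea and glucose synthesis, and cells near the central vein (pericentral) lead in detoxification and bile acid synthesis.

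Library totals ran from 155201 counts in WT 1 and 342609 in WT 2 to 1686234 in HET 5, with 264660 to 721427 in the other HET livers. A single count is worth 6.44 CPM in WT 1 and 0.593 CPM in HET 5, so low genes are least well measured in WT 1. Spearman correlations between pairs of livers were 0.757 to 0.870 over the genes tested, which are not independent replicates. The 10 hepatocyte markers, among them Alb and Apoa1, took 15.1% and 13.8% of counts in the WT livers and at most 13.7% in any HET liver, and all 10 passed the expression filter. Wilson intervals at 95% confidence, which cover counting error only, reached at most 10.2% of a share on either side for any list share above 0.2% printed here.

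Otub2 itself (chr12:103388682-103406350, plus strand, mm10) was close to the limit of detection in liver. WT 1 had 1 count and WT 2 had 0, and HET 1 to HET 5 had 1, 0, 1, 1 and 2. Both genotypes therefore had livers with 0 counts and livers with a count. Its level was 3.22 ± 4.56 CPM in WT (SD, n = 2) and 1.80 ± 1.39 in HET (SD, n = 5), and the difference of −1.42 CPM had p = 0.571 in a two-sided exact permutation test, whose 21 splits allow no p below 0.0952. Without WT 1 the difference turned to 1.80 CPM. Since the libraries read 3′ ends and the deleted part is not known here, these counts may check nothing about the genotype labels. The paralog Otub1 had 25.8 CPM in WT 1, 90.5 in WT 2 and 39.1, 98.4, 65.8, 94.5 and 42.1 in HET 1 to HET 5, with the WT livers at or near both ends of the range. Otub1 had a log2 fold change of 0.19 ± 0.51 (SE; adjusted p = 0.928), and −0.31 without WT 1.

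No single gene passed the test. Of 5377 genes, edgeR's quasi-likelihood test called 0, or 0%, at an adjusted p under 0.05, where 533 had an unadjusted p under 0.05. These were 270 genes higher in HET (5.02% of those tested) and 263 lower (4.89%). All 5 HET livers lay above both WT livers for 388 genes (7.22%) and below both for 530 (9.86%), and 53.2% of all genes had a log2 fold change above 0. DESeq2 called 11 genes on the same counts and limma's voom with quality weights called 7. The median log2 fold change was 0.05, with quartiles of −0.39 and 0.51, and the biological coefficient of variation was 35.4%. These percentages are the background for each count below, and list counts at an unadjusted p describe a list and are no test of it. In whole tissue, fewer cells of a type and less RNA per cell cannot be told apart.

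The lowest p in the higher direction belonged to Wfdc21 (chr11:83746940-83752642, plus strand, mm10), which encodes a small secreted protein with a whey acidic protein domain. It had 393 CPM in WT 1, 189.7 in WT 2 and 1147, 1196, 960.1, 1137 and 1008 in HET 1 to HET 5. Every HET liver held more than 2 times the level of WT 1, the higher of the WT livers. This was a log2 fold change of 2.01 ± 0.34 (SE; edgeR adjusted p = 0.0503), and DESeq2 and voom both called it. Mup5, a major urinary protein (chr4:61831319-61835233, minus strand), had 77.3 and 46.7 CPM in the WT livers and 316, 590.5, 517, 563 and 182 in the HET livers. The groups did not overlap, with HET 5 closest to WT, and the log2 fold change was 2.96 ± 0.54 (adjusted p = 0.131). Serpina3k, a secreted protease inhibitor of the serpin family, had 5058 and 3377 CPM in the WT livers and 8382, 11889, 8387, 8955 and 10826 in the HET livers. Its groups did not overlap either, and the log2 fold change was 1.28 ± 0.30 (adjusted p = 0.209). Serpina3k overlaps Serpina3m on the same strand and has close paralogs, so its counts may be shared with them. Hint1, a purine phosphoramidase, had 329 and 339 CPM in the WT livers and 1167, 866, 629, 1058 and 554 in the HET livers. HET 5 was the lowest HET liver for Hint1 and was still above both WT livers. Hint1 had a log2 fold change of 1.44 ± 0.34. Rarres1, a retinoic acid responsive gene, had 12.9 and 11.7 CPM in the WT livers. In the HET livers it had 91.2, 67.9, 32.9, 60.5 and 66.4 CPM, at 2.46 ± 0.60 on the log2 scale with separate groups. A single count is worth 6.44 CPM in WT 1 and 2.92 CPM in WT 2, so both WT levels of Rarres1 rest on a few counts. Rarres1 passed the filter through the HET livers alone. Its level in WT 1 was below the 19.3 CPM limit of that library, so the size of its difference is uncertain.

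Among the genes lower in HET, the lowest p was that of Malat1, an abundant long noncoding RNA that stays in the nucleus (chr19:5795690-5802672, minus strand). Its level was 367 CPM in WT 1, 1635 in WT 2 and 231, 161, 140.3, 147 and 249.7 in HET 1 to HET 5. All 5 HET livers were below WT 1, and WT 2 stood apart at more than 4 times WT 1. That gave a log2 fold change of −2.36 ± 0.40 (SE; edgeR adjusted p = 0.0920), and −0.95 without WT 2, with −3.02 without WT 1. Pabpn1, the nuclear poly(A)-binding protein, had 64.4 and 64.2 CPM in the WT livers and 9.31, 5.54, 13.2, 18.9 and 8.30 in the HET livers. The WT livers agreed closely and every HET liver was lower, at −2.58 ± 0.55 on the log2 scale (adjusted p = 0.172). Pabpn1 shares its strand and position with the predicted gene Gm20521, so its counts are uncertain. Col5a3, a fibrillar collagen chain, had 103 and 87.6 CPM in the WT livers and 24.2, 6.93, 24.1, 18.9 and 28.5 in the HET livers. The groups were separate, with HET 2 lowest, and the log2 fold change was −2.10 ± 0.47. Chka, the choline kinase that starts phosphatidylcholine synthesis, had 116 and 117 CPM in the WT livers and 37.2, 13.9, 15.3, 45.3 and 39.7 in the HET livers, a log2 fold change of −1.89 ± 0.44 with no overlap of groups. Psme2b, which carries a proteasome activator sequence, had 58.0 and 152 CPM in the WT livers and 16.8, 34.7, 35.1, 30.2 and 15.4 in the HET livers. Both WT livers were above every HET liver, but WT 1 and WT 2 themselves differed by more than 2 times. Psme2b overlaps other genes on its strand.

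**Figure D1:**
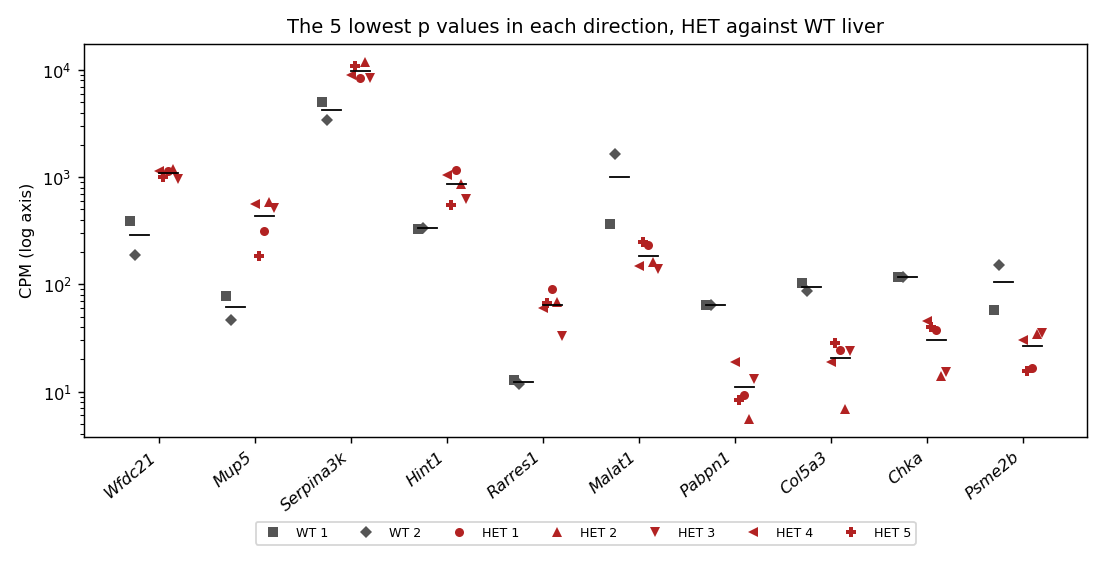
Level of the 5 genes with the lowest p in each direction (x axis) in CPM on a log axis, 1 point per library (grey WT, red HET) and a black line at each group mean. In all 10 genes the HET points lie on 1 side of both WT points, and Malat1 in WT 2, at 1635 CPM, stands above WT 1.

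Promoter windows were at hand for 6 of these 10 genes (RefSeq, GRCm38.p6), and for 4216 of the 5377 genes tested. Rarres1, Chka, Malat1 and Pabpn1 were picked by hand from these 6, and the others were not checked. The start of each but Pabpn1 matched a GENCODE transcript. The 250 bases before the start of the 3 matched genes are printed. They show that genes moving in opposite directions hold a loose form of the motif of NF-kB, a transcription factor pathway that OTU enzymes act on. Capitals mark GGG and CC placed 5 bases apart, on either strand. The windows are chr3:67515524-67515773 (minus strand), chr19:3851523-3851772 (plus strand) and chr19:5802673-5802922 (minus strand).
Rarres1: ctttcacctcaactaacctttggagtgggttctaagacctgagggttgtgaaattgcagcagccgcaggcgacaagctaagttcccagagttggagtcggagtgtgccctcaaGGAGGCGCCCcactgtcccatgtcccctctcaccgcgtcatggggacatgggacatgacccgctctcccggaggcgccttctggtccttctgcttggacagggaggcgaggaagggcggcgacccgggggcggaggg
Chka: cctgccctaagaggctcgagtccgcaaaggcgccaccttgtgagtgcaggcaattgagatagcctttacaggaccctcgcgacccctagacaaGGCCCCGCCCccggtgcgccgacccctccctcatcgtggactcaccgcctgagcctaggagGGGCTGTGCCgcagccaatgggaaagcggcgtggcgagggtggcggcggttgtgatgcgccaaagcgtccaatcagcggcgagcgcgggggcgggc
Malat1: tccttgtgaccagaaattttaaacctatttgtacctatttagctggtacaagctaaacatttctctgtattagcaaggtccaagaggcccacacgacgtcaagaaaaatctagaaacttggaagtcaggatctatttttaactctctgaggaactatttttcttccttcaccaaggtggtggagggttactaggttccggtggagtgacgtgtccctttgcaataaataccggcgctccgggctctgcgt
Rarres1, higher in HET, holds 1 match, Chka, lower in HET, holds 2, and Malat1, lower in HET, holds none. The loose pattern occurs in 45.8% of all 32851 windows and in 61.9% of the windows of genes tested, so its presence sets no gene apart. None of the 3 windows holds the C/EBP pattern TTGCNNAA (9.56% of windows), the STAT pattern TTCNNNGAA (7.02%), the HNF1 pattern GTTAAT (6.43%), the HNF4 pattern CAAAGTCCA (0.384%), the nuclear receptor pattern AGGTCA (14%), the E-box CACGTG (6.02%) or the D-boxes TTATGTAA (0.819%) and TTACGTAA (0.113%), all searched on both strands.

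Of the 36 lists with a median, 30 had it change sign or move by over 1.5 times when a single liver was left out, most often WT 2 (25 lists). The 6 others were major urinary proteins, complement, coagulation, ubiquitin and proteasome, cytosolic ribosomal proteins and mitochondrial DNA transcripts. Plasma carrier proteins were at like levels in both genotypes. Of 21 tested, 16 had a log2 fold change above 0, the median was 0.11, and 1 in the higher and 0 in the lower direction had an unadjusted p under 0.05. The list took 10.3% and 9.67% of counts in the WT livers and 9.95%, 10.9%, 9.90%, 8.26% and 10.6% in the HET livers. Alb, serum albumin, had 26746 CPM in WT 1, 18984 in WT 2 and 33895, 28538, 12331, 11112 and 27811 in HET 1 to HET 5. HET 3 and HET 4 had less than WT 2 and the other 3 had more than WT 1, so the WT livers lay within the HET range. The log2 fold change was 0.06 ± 0.39, between −0.21 without WT 2 and 0.37 without WT 1. Ttr, the carrier of thyroid hormone and retinol-binding protein, had 17017 and 13502 CPM in the WT livers and 10267, 10622, 10246, 11747 and 17252 in the HET livers. Trf, the iron carrier transferrin, had 16063 and 20134 CPM in the WT livers and 15309.5, 18968, 22134, 18752 and 14272 in the HET livers, with overlapping groups and a log2 fold change of 0.08 ± 0.29 that is −0.03 under scaling by total counts and −0.04 without WT 1. Apoh, a lipid-binding plasma glycoprotein, had 831 and 613 CPM in the WT livers and 1048, 977, 798, 850.1 and 2096 in the HET livers, and HET 5 stood apart from the other HET livers. Ces1c, a carboxylesterase secreted into mouse plasma, had 1617 and 2172 CPM in the WT livers and 2920.4, 2492, 2569, 2365 and 2827 in the HET livers, and its groups did not overlap (0.56 ± 0.28, adjusted p = 0.513).

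Apolipoproteins, which carry lipid in blood, were evenly split: 7 of 15 were higher and 8 lower, with 0 at an unadjusted p under 0.05. The list took 15.1% and 14.4% of counts in the WT livers and 12.7%, 12.3%, 13.8%, 14.7% and 10.2% in the HET livers, with HET 5 lowest. Apoa1, the main protein of high-density lipoprotein, had 31005 CPM in WT 1, 35988 in WT 2 and 23624, 25185, 32099, 30182 and 17985 in HET 1 to HET 5. Its groups overlapped, and the log2 fold change was −0.28 ± 0.29 (SE; adjusted p = 0.782). Apoa2 had 34839 and 25568 CPM in the WT livers and 24821, 20446, 25613, 29842 and 17909.7 in the HET livers. Apoe, a ligand for lipoprotein uptake, had 43795 and 35968 CPM in the WT livers and 37041, 36559.5, 35797, 40388 and 30517 in the HET livers. Both overlapped between genotypes, at −0.26 ± 0.28 and −0.06 ± 0.27 on the log2 scale, and both turned to the higher direction without WT 1 (0.02 and 0.13). Apof, an inhibitor of lipid transfer, was higher in all HET livers, with 844 and 969 CPM in the WT livers and 1003, 1455, 1420.5, 1081 and 1159 in the HET livers. Lcat, which esterifies cholesterol in lipoproteins, was lower in all of them, with 979 and 1065 CPM in the WT livers and 571, 733, 796, 563 and 805 in the HET livers. Apof was at 0.52 ± 0.29 and Lcat at −0.47 ± 0.28 on the log2 scale.

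Acute-phase proteins, which the liver releases in inflammation, were higher in 21 of 22, with a median of 0.60 (0.40 without HET 3), but 0 had an unadjusted p under 0.05 in either direction. The list took 2.02% and 2.25% of counts in the WT livers and 1.82%, 3.75%, 6.64%, 2.01% and 1.62% in the HET livers. HET 2 and HET 3 held the high shares, and HET 1, HET 4 and HET 5 were at or below the WT livers. Saa1, serum amyloid A1, had 567 CPM in WT 1, 703 in WT 2 and 544, 4326, 8821, 510.1 and 77.1 in HET 1 to HET 5. HET 2 and HET 3 exceeded both WT livers by more than 5 times, HET 1 and HET 4 were near them, and HET 5 was lowest. The log2 fold change of 2.32 ± 2.06 therefore had a wide error (adjusted p = 0.759). Hp, haptoglobin, which binds free haemoglobin, had 10393 and 12110.0 CPM in the WT livers and 7658, 16829, 28940.3, 8909.5 and 4308 in the HET livers, again highest in HET 3 and lowest in HET 5, and its log2 fold change of 0.37 ± 0.78 was −0.14 without HET 3. Orm1, an acid glycoprotein, had 1263 and 908 CPM in the WT livers and 1483, 3079, 5364, 2229 and 1199 in the HET livers. Itih4, an inter-alpha-trypsin inhibitor chain, had 1649 and 1996 CPM in the WT livers and 2116, 3371, 4544, 1953 and 1181 in the HET livers. Fgg, the fibrinogen gamma chain, did not follow this order and was highest in HET 5, with 896 and 482 CPM in the WT livers and 884, 1196, 730.0, 691 and 2098 in the HET livers. Saa genes have near-identical copies, so their counts are uncertain.

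Complement proteins, the blood's lytic defence, were higher in 16 of 18, with a median of 0.54. An unadjusted p under 0.05 was reached by 4 in the higher and 0 in the lower direction, and 5.02% of all genes reached it in the higher direction. C8b, a chain of the membrane attack complex, had 193 CPM in WT 1, 198 in WT 2 and 285, 473, 480.1, 325 and 344 in HET 1 to HET 5. Its partner C8a had 142 and 137 CPM in the WT livers and 207, 331, 267, 147 and 291 in the HET livers. Both were separate between groups, with log2 fold changes of 1.06 ± 0.34 and 0.94 ± 0.37 (adjusted p = 0.284 and 0.395). Serping1, the C1 inhibitor, had 741 and 724 CPM in the WT livers and 990.2, 1428, 1269, 809 and 1191 in the HET livers, also with no overlap (0.73 ± 0.31). C3, the central component, had 4749 and 5233 CPM in the WT livers and 3641, 4967, 6519, 4659 and 5072 in the HET livers, with both WT livers inside the HET range. C3 had a log2 fold change of 0.09 ± 0.29, or −0.02 under scaling by total counts. C4b had 1707 and 1789 CPM in the WT livers and 2046, 2693, 3297, 2309 and 1089 in the HET livers, lowest in HET 5.

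Coagulation genes were higher in 14 of 17, with a median of 0.38 and 3 with all HET livers above both WT livers and 0 with all below. Serpinc1, antithrombin, had 1829.9 CPM in WT 1, 1451 in WT 2 and 2604, 2503, 1955, 2641 and 2105 in HET 1 to HET 5 (0.61 ± 0.28, adjusted p = 0.484). Serpina10, which inhibits factor Xa, had 174 and 219 CPM in the WT livers and 303, 358, 429.7, 351 and 234 in the HET livers (0.85 ± 0.34). In both, each HET liver exceeded each WT liver. F2, prothrombin, had 1772 and 1036 CPM in the WT livers and 1792, 2142, 1469, 1746 and 2016 in the HET livers, and HET 3 and HET 4 lay below WT 1. Plg, plasminogen, had 1411 and 1016 CPM in the WT livers and 1268, 1759, 1852, 1413 and 1853 in the HET livers, with HET 1 below WT 1. Serpins as a list took 2.70% and 2.08% of counts in the WT livers and 2.81%, 3.81%, 3.31%, 3.30% and 5.49% in the HET livers, with HET 5 highest, and 11 of 13 were higher (median 0.38; 0.84 without WT 1, 0.17 without WT 2 and 0.14 without HET 5). Serpina1e, an alpha-1-antitrypsin gene that liver makes more of in male mice, had 4375 and 5300.5 CPM in the WT livers and 4439, 10475, 11993, 8925 and 15334 in the HET livers. HET 1 was at the WT level and the other HET livers were well above it, a log2 fold change of 1.16 ± 0.38. Serpina1c, its paralog, had 6437 and 3768 CPM in the WT livers and 5424, 5694, 4559.6, 5471 and 10198 in the HET livers and was high in HET 5 alone. Serpina3c was low, with 6.44 and 14.6 CPM in the WT livers and 26.1, 45.7, 21.9, 45.3 and 22.5 in the HET livers. Its groups did not overlap, but it passed the filter through the HET livers alone. Its level in WT 1 was below the 19.3 CPM limit of that library, so its difference is uncertain. Serpina1 and Serpina3 genes are near-identical copies and reads may be split among them.

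**Figure D2:**
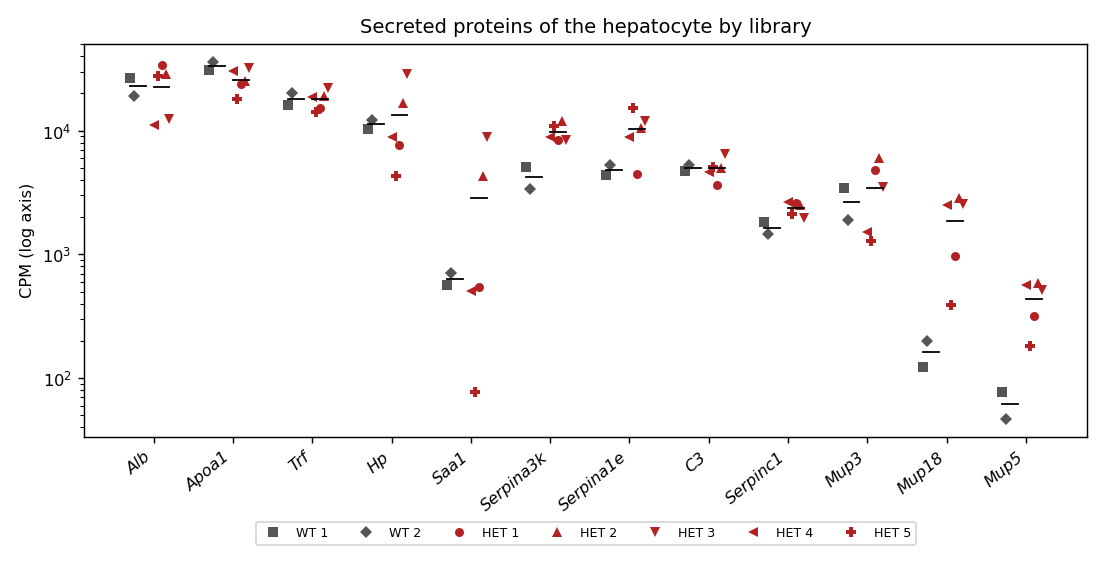
Level in CPM (log axis) of 12 secreted proteins in each library, grey for WT and red for HET, with a line at each group mean. Alb, Apoa1, Trf and C3 overlap between genotypes, Saa1 spans 77.1 to 8821 CPM among the HET livers, and Mup5 and Mup18 are separate between genotypes.

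Major urinary proteins, pheromone carriers that mouse liver secretes for the urine, had the highest list median, 1.81, and all 14 tested were above 0. Mup8 had 0 counts in WT, so the size of its difference is uncertain, but a median does not depend on how far a member lies above it. Of the 14 tested, 9 in the higher and 0 in the lower direction had an unadjusted p under 0.05. There were 7 with all HET livers above both WT livers and 0 with all below, and Mup8 and Mup15 are among these 7. Of 22 listed members, 14 passed the filter. Mup8 and Mup15 passed it through the HET livers alone, so the filter favours higher members in these counts. The list took 0.495% and 0.314% of counts in the WT livers and 0.954%, 1.29%, 1.10%, 0.853% and 0.330% in the HET livers. HET 5 was at the WT level and the other 4 HET livers were above it. Mup18 had 122 CPM in WT 1, 201 in WT 2 and 972, 2846, 2556, 2528 and 388 in HET 1 to HET 5, a log2 fold change of 3.61 ± 1.01 (SE; adjusted p = 0.361). Mup11 had 232 and 181 CPM in the WT livers and 516, 1074, 1254, 589 and 377 in the HET livers (2.01 ± 0.51, adjusted p = 0.265). Mup15 had 6.44 and 8.76 CPM in the WT livers and 76.3, 355, 206, 159 and 45.7 in the HET livers (4.48 ± 1.23). In these 3 genes and in Mup21, with 289.9 and 289 CPM in the WT livers and 424, 780.4, 710.2, 1224 and 525 in the HET livers, no HET liver overlapped WT. Mup17 overlapped, with 354 and 236 CPM in the WT livers and 681, 406, 1037, 1292 and 279 in the HET livers. Mup3, which held 69.4% of the counts of the tested members in WT 1 and 60.4% in WT 2, overlapped as well, with 3434 and 1888 CPM in the WT livers and 4853, 6041, 3489.8, 1526 and 1283 in the HET livers and a log2 fold change of 0.47 ± 0.67 (0.05 without WT 2 and 1.00 without WT 1). It held 18.1% to 51.1% of these counts in the HET livers. Without Mup3 the tested members came to 1514 and 1238 CPM in the WT livers and to 4651, 6742, 7501, 6930 and 2016 CPM in the HET livers. This sum leaves out the largest WT member, whose groups overlapped, and keeps Mup8 and Mup15, which passed the filter through HET alone. Its separation of the groups is therefore no test, and the share of the whole list did not separate them. Mup8, singled out after its values were seen, had 0 counts in both WT livers, which allows up to 19.3 CPM in WT 1 and 8.76 CPM in WT 2. Its HET levels were 962 and 659.8 CPM in HET 1 and HET 3 and 4.16, 3.78 and 0.593 CPM in the other three. These genes are near-identical copies, so a count of 1 member may belong to another.

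Genes that male mouse liver expresses more than female liver were also higher: 20 of 22, with a median of 1.09 (0.72 without WT 2 and 0.82 without HET 5), and 10 in the higher and 0 in the lower direction at an unadjusted p under 0.05. This list shares Mup21, Serpina1e and C8b with the lists above. It took 0.944% and 0.898% of counts in the WT livers and 0.955%, 1.75%, 1.88%, 1.72% and 2.43% in the HET livers. HET 1 was at the WT level and the other 4 HET livers were above it. Hsd3b5, a steroid dehydrogenase, had 77.3 CPM in WT 1, 26.3 in WT 2 and 108, 193, 147, 166 and 278 in HET 1 to HET 5 (2.00 ± 0.49, adjusted p = 0.213). Slco1a1, an organic anion and bile acid uptake carrier, had 155 and 90.5 CPM in the WT livers and 264, 295, 226, 295 and 307 in the HET livers (1.29 ± 0.34, adjusted p = 0.265). Selenbp2, a selenium-binding protein, had 199.7 and 522 CPM in the WT livers and 320.2, 988, 1344, 1088 and 1644 in the HET livers, with HET 1 inside the WT range. Cyp2d9, a male-predominant cytochrome P450, had 2249 and 1424 CPM in the WT livers and 2325, 2343, 2199, 3000.1 and 3039.9 in the HET livers. Of 35 genes that female liver expresses more, 18 had 0 counts in all 7 livers and 6 passed the filter, 3 of them higher and 3 lower. Their median of −0.02 was −1.77 without HET 5, −1.06 with a mean of at least 10 CPM and 0.39 without WT 1. Summed, the 35 genes took 0.0638% and 0.112% of counts in the WT livers and 0.0432%, 0.0152%, 0.0103%, 0.0113% and 0.0348% in the HET livers, and each HET liver was below both WT livers. Hamp2, described below among iron genes, is 1 of the 35 and made up most of this sum in both WT livers. The sums in WT therefore weigh Hamp2 most, and a sum of the list without Hamp2 was not made. Cyp2a4, below the filter and singled out after its values were seen, had 25.8 and 137 CPM in the WT livers and 14.9, 9.70, 4.38, 7.56 and 2.97 in the HET livers. It had 4 counts in WT 1 and 47 in WT 2, and WT 2 was the only liver with at least 10. The edgeR test called it lower with no filter (adjusted p = 2.04e-05) and with a mean of at least 10 CPM (adjusted p = 0.0343). Xist had 0 counts in every liver, and 4 Y-linked genes together had 2 and 4 counts in the WT livers and 10, 5, 3, 2 and 11 in the HET livers. Sex was not stated for the livers, and its part in the values of these lists was not tested.

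The growth hormone and IGF axis was near the background, with 8 of 12 higher and a median of 0.13 (0.03 without HET 5 and 0.38 without WT 2). Cish, an inhibitor that growth hormone induces through STAT5, had 38.7 and 29.2 CPM in the WT livers and 74.5, 43.0, 37.3, 94.5 and 89.0 in the HET livers (1.09 ± 0.51). Bcl6, a transcriptional repressor that male liver expresses more, was low in most livers, with 12.9 and 32.1 CPM in the WT livers and 1.86, 18.0, 6.58, 3.78 and 1.78 in the HET livers (−1.79 ± 0.93). Both overlapped between groups. Igf1, the growth factor itself, had 548 and 525 CPM in the WT livers and 558, 596, 636, 737 and 1123 in the HET livers, each HET liver above each WT liver and HET 5 highest (0.52 ± 0.31). Igfbp2, an IGF-binding protein, had 1688 and 1147 CPM in the WT livers and 1686, 2569, 2139.5, 1372 and 946 in the HET livers and overlapped.

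Iron genes had a median of 0.11, with 9 of 11 higher. At an unadjusted p under 0.05 there were 0 in the higher and 1 in the lower direction, where 4.89% of all genes were lower. No member had all HET livers above both WT livers, and 2 had all below. Hamp2, a paralog of hepcidin that is higher in female liver, had 374 CPM in WT 1, 841 in WT 2 and 229, 44.4, 72.3, 60.5 and 91.3 in HET 1 to HET 5. All HET livers were below WT 1, HET 1 was the highest of them, and WT 2 was more than 2 times WT 1. Hamp2 had a log2 fold change of −2.54 ± 0.51 (SE; edgeR adjusted p = 0.209), −3.08 without HET 1, where it passed, and −1.88 without WT 2. Hamp, hepcidin, the hormone that limits iron uptake, had 264 and 1667 CPM in the WT livers and 1569, 549, 800.1, 1606 and 1803 in the HET livers. WT 1 was the lowest of the 7 and WT 2 was near the top, so its log2 fold change of 0.44 ± 0.70 became −0.30 without WT 1. Hamp and Hamp2 are close copies and their counts may be shared. The ferritin chains Ftl1 and Fth1 went separate ways. Ftl1 had 1321 and 1284 CPM in the WT livers and 847, 1048, 905, 922 and 844 in the HET livers, lower in each HET liver (−0.43 ± 0.26). Fth1 had 1707 and 952 CPM in the WT livers and 1323, 1307, 1236, 1326 and 2714 in the HET livers, high in HET 5.

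Endoplasmic reticulum chaperones and genes of the unfolded protein response were higher in 19 of 23, with a median of 0.52 and 4 in the higher and 0 in the lower direction at an unadjusted p under 0.05. The median was −0.03 without WT 2 and 0.90 without WT 1, so it rests on WT 2, whose share was the lowest: 0.709% and 0.529% of counts in the WT livers and 0.734%, 0.853%, 0.753%, 0.846% and 0.690% in the HET livers. Ssr4, a subunit of the translocon-associated complex, had 213 CPM in WT 1, 146 in WT 2 and 463, 564, 329, 435 and 229 in HET 1 to HET 5 (1.28 ± 0.38, adjusted p = 0.265). Sec61b, a subunit of the translocation channel, had 168 and 181 CPM in the WT livers and 309, 373, 226, 344 and 286 in the HET livers (0.90 ± 0.32). Xbp1, the transcription factor of the secretory programme, had 180.4 and 161 CPM in the WT livers and 214, 294, 267, 348 and 347 in the HET livers (0.87 ± 0.32). In these 3 genes every HET liver was above both WT livers. P4hb, a protein disulfide isomerase, had 1920.1 and 1562 CPM in the WT livers and 2630.1, 2786, 2392, 3042 and 1639.8 in the HET livers, with HET 5 inside the WT range.

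**Figure D3:**
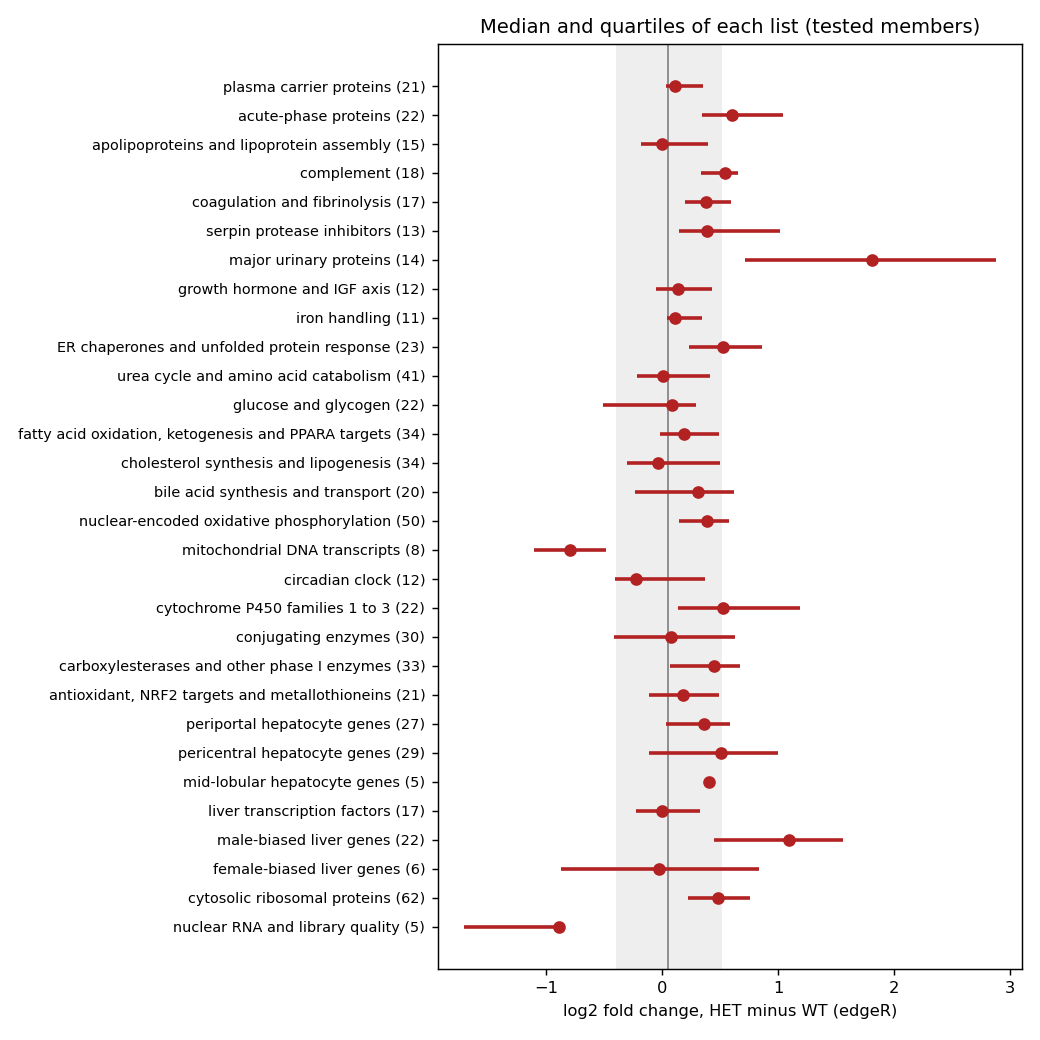
Median (point) and quartiles (bar) of the log2 fold change of the tested members of each list, with the number tested in brackets, against the median (line) and quartiles (grey band) of all 5377 genes. Major urinary proteins (1.81) and male-biased genes (1.09) lie farthest to the right and nuclear RNA (−0.89) and mitochondrial DNA transcripts (−0.79) farthest to the left.

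Urea cycle and amino acid catabolism genes were split evenly, 21 of 41 higher with a median of 0.01, and 3 with all HET livers above both WT livers and 7 with all below. Ass1, argininosuccinate synthase of the urea cycle, had 6269 and 9150.4 CPM in the WT livers and 11244, 5578, 7159, 9677 and 6661 in the HET livers (0.14 ± 0.31, and −0.07 without WT 1). The WT livers lay within the HET range. Sardh and Dmgdh act in sequence on the breakdown products of choline, and went opposite ways. Sardh, sarcosine dehydrogenase, had 1604 CPM in WT 1, 1585 in WT 2 and 859.9, 725, 934, 1069 and 808 in HET 1 to HET 5 (−0.78 ± 0.26, adjusted p = 0.340). Dmgdh, dimethylglycine dehydrogenase, had 148 and 140.1 CPM in the WT livers and 281, 248, 206, 246 and 413 in the HET livers (1.03 ± 0.34, adjusted p = 0.304). Neither overlapped between groups. Uroc1, urocanase of histidine breakdown, had 142 and 143 CPM in the WT livers and 81.9, 80.4, 68.0, 22.7 and 69.4 in the HET livers, lower in each HET liver and lowest in HET 4 (−1.02 ± 0.41). Ahcy, which hydrolyses S-adenosylhomocysteine, had 599 and 674 CPM in the WT livers and 1037, 889.9, 824, 907 and 1110.2 in the HET livers, higher in each HET liver (0.66 ± 0.28). Hpd, of tyrosine breakdown, had 3202 and 4261 CPM in the WT livers and 3008, 2368, 2999, 2902 and 2854 in the HET livers, below both WT livers throughout and at −0.32 ± 0.26 on the log2 scale.

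Glucose and glycogen genes had a median of 0.09, with 13 of 22 higher and 1 in the higher and 2 in the lower direction at an unadjusted p under 0.05. Gcgr, the glucagon receptor, had 567 and 476 CPM in the WT livers and 311, 254, 272, 404 and 270.4 in the HET livers, lower in each HET liver (−0.71 ± 0.28). Pck1, the gluconeogenic enzyme PEPCK, had 2436 and 2189 CPM in the WT livers and 2844, 2270.5, 2139.5, 1258 and 2796 in the HET livers. Its log2 fold change of 0.05 ± 0.31 was −0.04 under scaling by total counts and −0.08 without WT 2.

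Fat oxidation and ketogenesis genes were higher in 24 of 34 (median 0.19, or 0.06 without WT 2 and 0.32 without WT 1; 3 in the higher and 1 in the lower direction at an unadjusted p under 0.05). Fabp1, the liver fatty acid binding protein, had 7442 CPM in WT 1, 6442 in WT 2 and 10191, 9569, 9062, 11162 and 10827 in HET 1 to HET 5. All HET livers were above both WT livers (0.63 ± 0.27, adjusted p = 0.430). Angptl4, a secreted inhibitor of lipoprotein lipase, had 289.9 and 301 CPM in the WT livers and 534, 385, 469, 487 and 329 in the HET livers, again without overlap (0.66 ± 0.30). Hsd17b4, of peroxisomal oxidation, had 303 and 140.1 CPM in the WT livers and 357, 392, 259, 431 and 435 in the HET livers and overlapped. Acot2, a mitochondrial thioesterase, was lower in each HET liver, with 32.2 and 43.8 CPM in the WT livers and 16.8, 15.2, 4.38, 11.3 and 8.30 in the HET livers (−1.71 ± 0.61). Acaa1b, a peroxisomal thiolase, had 2680.4 and 2183 CPM in the WT livers and 1882, 1142, 819.9, 1904 and 2559.6 in the HET livers and overlapped (−0.49 ± 0.33).

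Cholesterol synthesis and fat synthesis genes were evenly split, 17 of 34 higher, with a median of −0.03. The list took 0.784% and 0.871% of counts in the WT livers and 1.20%, 0.546%, 0.703%, 1.00% and 0.734% in the HET livers, with HET 2 lowest and HET 1 highest. Mlxipl, the carbohydrate-responsive factor ChREBP, had 289.9 and 543 CPM in the WT livers and 257, 146, 202, 208 and 226 in the HET livers, lower in each HET liver (−0.94 ± 0.31, adjusted p = 0.296; −0.46 without WT 2). Stard4, which moves cholesterol between membranes, had 32.2 and 32.1 CPM in the WT livers and 115, 52.7, 81.1, 102 and 65.2 in the HET livers and was higher in each (1.43 ± 0.48, adjusted p = 0.336). Fdps, farnesyl diphosphate synthase, had 412 and 306 CPM in the WT livers and 925, 276, 706, 1062 and 658 in the HET livers; HET 2 was below WT 2 while the other 4 were above WT 1 (1.09 ± 0.41). Thrsp, a lipogenic protein, had 844 and 1932 CPM in the WT livers and 3373, 1096, 1657, 2577 and 793 in the HET livers, and WT 1 and WT 2 differed by more than 2 times. Dgat2, which completes triglyceride synthesis, had 1012 and 1229 CPM in the WT livers and 1199, 1306, 1389.8, 1213 and 983 in the HET livers.

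Bile acid genes had a median of 0.31 (0.62 without WT 1, −0.0051 without WT 2 and 0.12 without HET 5), with 13 of 20 higher, 3 in the higher and 0 in the lower direction at an unadjusted p under 0.05 and 4 with all HET livers above both WT livers and 0 with all below. Cyp7a1, the rate-limiting enzyme of bile acid synthesis, had 0 CPM in WT 1, 8.76 in WT 2 and 87.5, 18.0, 28.5, 18.9 and 55.7 in HET 1 to HET 5. WT 1 had 0 counts, WT 2 had 3, and HET 1 was highest. Cyp7a1 thus passed the filter through the HET livers alone. A count of 0 in WT 1 allows up to 19.3 CPM, which is above HET 2 and HET 4, so a separation of the groups is not shown. Pooled over livers, the 172.0 HET counts against 3 WT counts gave a ratio of 7.79 (exact interval at 95% confidence 2.62 to 38.1, counting error only). The interval leaves out the spread between livers and the choice by the filter, so it is no test of genotype. The log2 fold change was 2.91 ± 0.92 (SE; adjusted p = 0.284). Baat, which joins bile acids to taurine and glycine, had 174 and 172 CPM in the WT livers and 294, 306, 202, 348 and 276 in the HET livers (0.80 ± 0.32). Abcb11, the bile salt export pump, had 348 and 452 CPM in the WT livers and 534, 643, 528, 571 and 474 in the HET livers (0.54 ± 0.29). Each HET liver was above both WT livers in Baat and Abcb11.

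Genes of oxidative phosphorylation lie in the nucleus or on mitochondrial DNA, and the difference between these lists was not tested. Subunits encoded in the nucleus were higher in 42 of 50, with a median of 0.38 (0.22 without WT 2), 6 in the higher and 0 in the lower direction at an unadjusted p under 0.05, and 10 with all HET livers above both WT livers and 1 with all below. Transcripts of mitochondrial DNA were lower in 8 of 8, with a median of −0.79, 0 in the higher and 2 in the lower direction at an unadjusted p under 0.05, and 0 with all HET livers above both WT livers and 5 with all below. Ndufb8, of complex I, had 206 CPM in WT 1, 117 in WT 2 and 510.0, 376, 232, 336 and 313 in HET 1 to HET 5 (1.24 ± 0.36, adjusted p = 0.265). Cox6c and Cox7b, of complex IV, had log2 fold changes of 1.00 ± 0.29 and 1.06 ± 0.34. Cox6c had 387 and 347 CPM in the WT livers and 815, 739, 605, 673 and 620.3 in the HET livers. Atp5j, of ATP synthase, had 70.9 and 58.4 CPM in the WT livers and 112, 151, 132, 113 and 220.0 in the HET livers (1.28 ± 0.41). No HET liver overlapped WT in these 4 genes. Uqcrq, of complex III, had 2043 and 1932 CPM in the WT livers and 2887, 2635, 2499, 2815 and 1377 in the HET livers, low in HET 5. On mitochondrial DNA, mt-Nd1 had 219 CPM in WT 1, 105 in WT 2 and 48.4, 66.5, 63.6, 71.8 and 39.7 in HET 1 to HET 5 (−1.38 ± 0.40, adjusted p = 0.265). Another complex I subunit, mt-Nd2, had 232 and 254 CPM in the WT livers and 98.7, 121, 101, 144 and 48.0 in the HET livers (−1.18 ± 0.38, adjusted p = 0.284). Both were below WT in each HET liver and lowest in HET 5. Cytochrome b, mt-Cytb, had 612 and 414 CPM in the WT livers and 382, 334, 460.3, 657 and 292 in the HET livers and overlapped, at −0.19 ± 0.33, or 0.15 without WT 1. Summed, mitochondrial DNA transcripts took 0.284% and 0.243% of counts in the WT livers and 0.217%, 0.184%, 0.163%, 0.240% and 0.108% in the HET livers.

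Clock genes gave a median of −0.22, which was 0.65 without WT 2 and −0.64 without WT 1. Dbp, a clock output factor that cycles strongly over the day, had 116 CPM in WT 1, 540.0 in WT 2 and 337, 349, 386, 223 and 247 in HET 1 to HET 5. The WT livers were the lowest and the highest of the 7, and its log2 fold change was −0.68 without WT 1 and 1.46 without WT 2. Nr1d1, the repressor REV-ERB alpha, had 367 and 236 CPM in the WT livers and 68.9, 40.2, 123, 166 and 339 in the HET livers, with HET 5 at the WT level (−0.95 ± 0.68). Per3 had 19.3 and 78.8 CPM in the WT livers and 24.2, 19.4, 17.5, 11.3 and 11.9 in the HET livers and was high in WT 2 alone (−1.56 ± 0.55; −0.16 without WT 2). The labels do not state the hour of collection, and its part in these values was not tested.

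Cytochromes P450 of families 1 to 3, which oxidise drugs and steroids, were higher in 17 of 22 (median 0.52, or 0.34 without WT 2; 2 in the higher and 1 in the lower direction at an unadjusted p under 0.05). They took 1.57% and 1.23% of counts in the WT livers and 1.85%, 1.77%, 1.64%, 1.74% and 2.12% in the HET livers, so each HET liver had more than both WT livers. Cyp2a5, the coumarin hydroxylase, had 329 CPM in WT 1, 236 in WT 2 and 884, 632, 342, 525 and 865 in HET 1 to HET 5 (1.28 ± 0.36, adjusted p = 0.265). Cyp2e1, which oxidises ethanol and paracetamol, had 4137 and 2466 CPM in the WT livers and 5020.0, 4519, 4191, 4904 and 7016 in the HET livers (0.71 ± 0.30, adjusted p = 0.426). Both were separate between genotypes by narrow gaps between WT 1 and HET 3. Cyp3a11, a main drug-metabolising enzyme, had 174 and 64.2 CPM in the WT livers and 96.8, 44.4, 37.3, 34.0 and 21.9 in the HET livers. HET 1 exceeded WT 2 and the other HET livers were below it (−1.21 ± 0.53; −0.35 without WT 1). Cyp1a2, which oxidises aromatic amines, had 1140.5 and 698 CPM in the WT livers and 663, 962, 1206, 1035 and 1335 in the HET livers and overlapped (0.27 ± 0.32; −0.10 without WT 2). Reads of close P450 paralogs may be split.

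Other phase I enzymes were higher in 27 of 33 (median 0.45; 0.18 without WT 2 and 0.26 without HET 1 or HET 5), with 5 with all HET livers above both WT livers and 1 with all below. Aox3, an aldehyde oxidase, had 264 CPM in WT 1, 277 in WT 2 and 456, 694, 417, 578 and 562 in HET 1 to HET 5 (1.08 ± 0.31, adjusted p = 0.265). The carboxylesterase Ces1d had 631 and 575 CPM in the WT livers and 1461, 949.5, 653, 1013 and 909 in the HET livers (0.80 ± 0.31). Its relative Ces3a had 1482 and 1468 CPM in the WT livers and 1711, 3008, 2525, 2343 and 2235 in the HET livers (0.77 ± 0.30). All 3 were separate between groups. Aldh1b1, a mitochondrial aldehyde dehydrogenase, was lower in each HET liver, with 122 and 269 CPM in the WT livers and 109.8, 40.2, 70.1, 60.5 and 84.2 in the HET livers (−1.37 ± 0.39, adjusted p = 0.265; −0.72 without WT 2). Adh1, alcohol dehydrogenase, had 2487 and 1378 CPM in the WT livers and 1523, 1426, 1048, 1326 and 2969 in the HET livers and overlapped, at −0.16 ± 0.34, and 0.36 without WT 1.

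Conjugating enzymes, which attach glutathione, glucuronate, sulfate or methyl groups, had a median of 0.08, and 17 of 30 were higher. The median turned to −0.28 without WT 2 and −0.02 under scaling by total counts. Gstm1, a glutathione transferase, had 3415 CPM in WT 1, 3348 in WT 2 and 1614, 1374, 1530.1, 2282 and 3033 in HET 1 to HET 5. HET 5 was close to the WT livers and the other HET livers were lower (−0.72 ± 0.29, adjusted p = 0.414). Mgst1, a membrane-bound glutathione transferase, had 1869 and 1147 CPM in the WT livers and 2971, 2320.4, 1587, 2543 and 3975 in the HET livers and overlapped (0.90 ± 0.33). Ugt2b35, a glucuronosyltransferase, had 0 and 14.6 CPM in the WT livers and 40.9, 45.7, 37.3, 22.7 and 43.3 in the HET livers, with 0 counts in WT 1 (2.10 ± 0.70). Antioxidant and metallothionein genes had a median of 0.18 (0.0019 without HET 5 and 0.45 without WT 1), with HET 5 highest in share: 1.11% and 0.934% of counts in the WT livers and 1.16%, 1.27%, 1.19%, 1.11% and 1.70% in the HET livers. Selenop, the selenium carrier of plasma, had 902 and 531 CPM in the WT livers and 1340.2, 1639.8, 671, 707 and 2427 in the HET livers (0.99 ± 0.46). Gpx1, a glutathione peroxidase, had 4414 and 1897 CPM in the WT livers and 4130.3, 5284, 2806, 4345 and 5689 in the HET livers, with WT 1 and WT 2 more than 2 times apart (0.57 ± 0.34; 0.04 without WT 2 and 1.34 without WT 1). Srxn1, sulfiredoxin, was near the limit of detection in WT, with 0 and 11.7 CPM in the WT livers and 29.8, 15.2, 35.1, 15.1 and 30.8 in the HET livers. Ugt2b35 and Srxn1 passed the filter through the HET livers alone, so the size of their differences is uncertain.

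**Figure D4:**
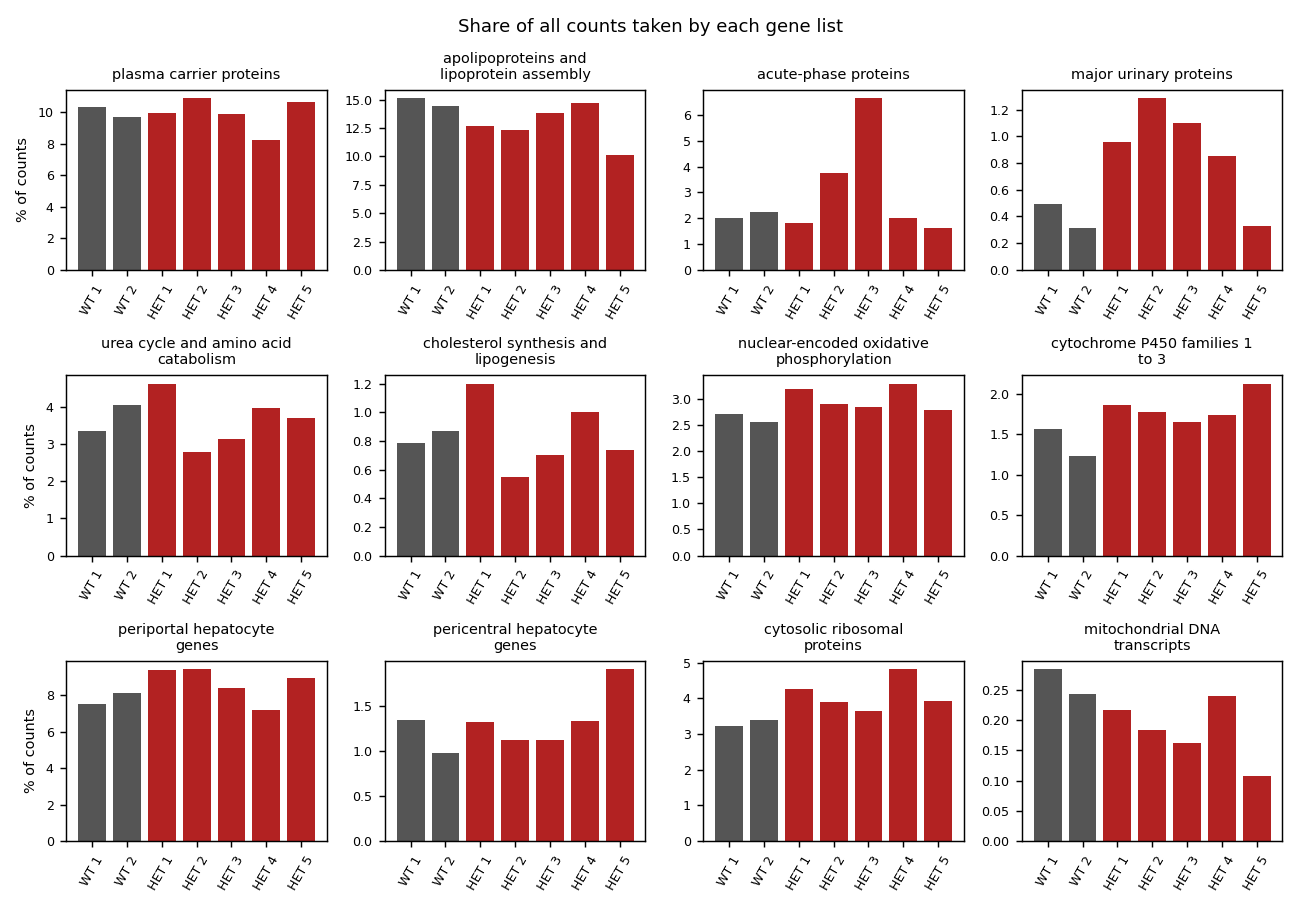
Share of all counts (percent, axes from 0) taken by 12 lists in each of the 7 libraries, grey for WT and red for HET. Acute-phase proteins are high in HET 2 and HET 3, major urinary proteins in HET 1 to HET 4, pericentral genes in HET 5, and cytosolic ribosomal proteins are above both WT livers in all HET livers.

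Zonation genes overlapped between genotypes when summed. Periportal genes were higher in 21 of 27 (median 0.36; 0.20 without HET 5 and 0.24 without HET 2) and pericentral genes in 19 of 29 (median 0.51; 0.09 without HET 5 and 0.21 without WT 2). Periportal genes took 7.50% and 8.12% of counts in the WT livers and 9.37%, 9.41%, 8.39%, 7.18% and 8.96% in the HET livers, and pericentral genes 1.34% and 0.978% of counts in the WT livers and 1.32%, 1.12%, 1.12%, 1.33% and 1.90% in the HET livers. The ratio of periportal to pericentral counts was 5.58 and 8.30 in the WT livers and 7.10, 8.38, 7.48, 5.39 and 4.71 in the HET livers, so WT 1 and WT 2 spanned most of the HET range. HET 5 had the lowest ratio. Alb, Trf and Hpx have the highest CPM of the periportal list, and the male-biased Serpina1e is also a member. The periportal share and the ratio therefore largely repeat plasma proteins described above and are no separate measure of zonation. Of periportal genes, Pigr, which carries immunoglobulin A into bile, had 1463 CPM in WT 1, 2563 in WT 2 and 988, 1083, 945, 1519 and 1277 in HET 1 to HET 5 (−0.72 ± 0.29; −0.30 without WT 2). WT 1 lay inside the HET range of Pigr. Cyp2f2, a periportal P450, had 831 and 613 CPM in the WT livers and 947, 1135, 774, 797 and 1834 in the HET livers, high in HET 5 (0.68 ± 0.34). Pericentral members described above went both ways, with Cyp2e1, Cyp2a5 and Cyp7a1 higher and Gstm1 and Cyp3a11 lower in HET. Liver transcription factors gave 8 of 17 higher. Onecut1, hepatocyte nuclear factor 6, was low, with 0 and 11.7 CPM in the WT livers and 40.9, 4.16, 28.5, 86.9 and 46.3 in the HET livers (2.40 ± 1.08). It passed the filter through the HET livers alone.

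Beyond hepatocyte functions, 57 of 62 cytosolic ribosomal protein genes were higher, with a median of 0.49 and 16 in the higher and 0 in the lower direction at an unadjusted p under 0.05. They took 3.21% and 3.40% of counts in the WT livers and 4.27%, 3.91%, 3.65%, 4.81% and 3.93% in the HET livers. Rpl22 had 174 CPM in WT 1, 161 in WT 2 and 452, 389.5, 259, 416 and 333 in HET 1 to HET 5 (1.22 ± 0.32, adjusted p = 0.265). Its groups did not overlap, and ribosomal genes have many processed copies that can share reads. Ubiquitin and proteasome genes were higher in 24 of 31 (median 0.48; 6 in the higher and 0 in the lower direction at an unadjusted p under 0.05). Psmb1, a core proteasome subunit, had 284 and 298 CPM in the WT livers and 530.5, 417, 390.2, 544 and 377 in the HET livers (0.71 ± 0.30). Rps27a, which encodes ubiquitin fused to a ribosomal protein, had 19.3 and 46.7 CPM in the WT livers and 171, 146, 74.5, 94.5 and 97.9 in the HET livers (1.79 ± 0.49, adjusted p = 0.265). NF-kB targets and regulators were near the background, 3 of 8 higher with 0 at an unadjusted p under 0.05, and their median of −0.07 turned to 0.47 without WT 2. Of the OTU family, 4 members passed the filter and 3 were higher. Interferon-stimulated genes were 7 of 14 higher. Irf1, an interferon response factor, had 103 and 75.9 CPM in the WT livers and 22.3, 41.6, 50.4, 41.6 and 47.4 in the HET livers, lower in each HET liver (−1.02 ± 0.42). Jund, an AP-1 subunit, had 264 and 152 CPM in the WT livers and 55.8, 58.2, 61.4, 41.6 and 149 in the HET livers, also lower in each (−1.36 ± 0.42) and passing the test without HET 5 (−1.80).

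Markers of other cells and of library quality were read beside these lists. Kupffer cell and macrophage markers took 0.0870% and 0.0841% of counts in the WT livers and 0.0633%, 0.0846%, 0.0636%, 0.0555% and 0.0422% in the HET livers, and 2 of 8 were higher. C1qa, a complement subunit that macrophages make, had 284 and 353 CPM in the WT livers and 147, 297, 263, 246 and 109 in the HET livers. Endothelial markers took 0.0193% to 0.0311% of counts and stellate cell and fibroblast markers 0.0291% to 0.0427% over the 7 livers. Cholangiocyte markers took 0.0194% in HET 5 and at most 0.00701% elsewhere, and Krt19, a bile duct keratin singled out after its values were seen, had 84 of its counts in HET 5 and at most 1 in any other liver. Haemoglobin and other erythroid genes took 0.455% and 0.670% of counts in the WT livers and 1.08%, 0.438%, 0.153%, 0.202% and 0.277% in the HET livers, highest in HET 1. Islet hormone genes had 0 counts in all 7 livers. Pancreatic acinar markers took 0.00709% and 0.00379% of counts in the WT livers and 0.0108%, 0.00970%, 0.00986%, 0.0144% and 0.0192% in the HET livers, each HET liver above both WT livers, from 11 to 324 counts a library. Of the 15 acinar markers, 10 had 0 counts in every liver. Cela1, an elastase, was the 1 marker that passed the filter, with 70.9 and 35.0 CPM in the WT livers and 106, 95.6, 98.6, 128 and 136 in the HET livers (1.25 ± 0.42). It held most of the acinar counts in every liver, so the higher acinar shares in HET are mainly those of this gene. Ctrb1, chymotrypsinogen, had 94 counts in HET 5 and 0 elsewhere. B and plasma cell markers took 0.0110% and 0.00467% of counts in the WT livers and 0.00186%, 0.00208%, 0.00175%, 0.00227% and 0.00178% in the HET livers, each HET liver below both WT livers, from 6 to 30 counts a library. Cela1 and Ctrb1 were singled out after their values were seen. Neat1, a nuclear noncoding RNA like Malat1, had 180.4 and 251 CPM in the WT livers and 125, 15.2, 39.5, 56.7 and 81.8 in the HET livers (−1.70 ± 0.51), below WT in each HET liver. All 5 tested members of the nuclear RNA and quality list were lower in HET (median −0.89, or −0.59 without HET 5), and the list took 0.237% and 0.417% of counts in the WT livers and 0.164%, 0.174%, 0.152%, 0.127% and 0.0353% in the HET livers. The part of these measures in the differences above was not tested. With all libraries thinned to the smallest total, 3 of 2425 genes passed, and over the members still tested the median was 1.36 for major urinary proteins, 0.90 for male-biased genes, 0.50 for complement, 0.29 for nuclear subunits of oxidative phosphorylation and −0.50 for mitochondrial DNA transcripts.

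Fold changes also followed transcript composition and length. The genes were put in 5 equal classes by GC content. Genes in the class with the lowest GC content of the last 500 transcript bases (18.2% to 40.4%) had a median log2 fold change of 0.35, with 99 higher and 31 lower at an unadjusted p under 0.05. The class with the highest GC content (53.6% to 73.7%) had a median of −0.20, with 10 higher and 92 lower. Median log2 fold changes by spliced length went from 0.16 up to 750 bases to −0.15 over 5000 bases. Across 5319 genes, which share the same libraries and are not independent, Spearman's rho with the fold change was −0.27 for the GC content of the last 500 bases and −0.14 for length. Genes higher at an unadjusted p under 0.05 had a median length of 2227.5 bases and those lower 3579. Of the leading genes, Wfdc21 has 434 and Mup5 925 bases, and Malat1 has 6983 and Col5a3 6119. The part of GC content and length in the list medians was not tested.

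**Figure D5:**
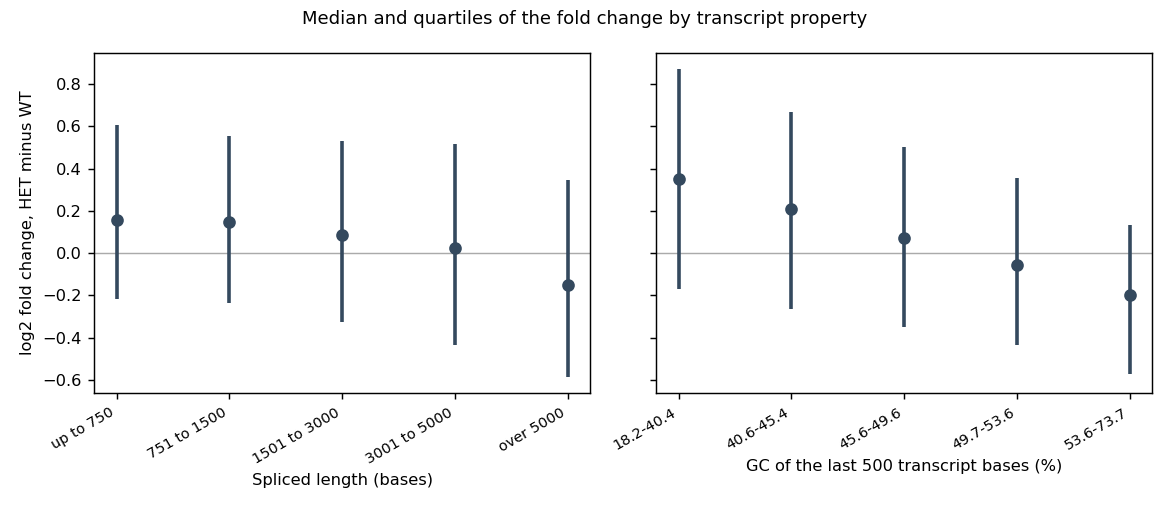
Median (point) and quartiles (bar) of the log2 fold change, HET minus WT, in 5 classes of spliced length (left) and in 5 classes of the GC content of the last 500 transcript bases (right). The medians go from 0.16 to −0.15 with length and from 0.35 to −0.20 with GC content.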

How the data were processed

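The 7 liver libraries were made from TRI reagent RNA by bulk MARS-seq, per the labels' protocols. The tools cutadapt and STAR and the build mm10 are named in the submitters' processing notes, and the counter, its annotation, strand setting and handling of molecular barcodes are not given in the sources used here. Per the values, the deposited liver table holds whole-number counts per gene, which the authors call corrected without saying for what; p-values hold only if they are still close to counts. Columns were assigned from the labels, 0 were left over, and no libraries had identical values. Nothing in the labels shows that samples are separate animals, so p-values may measure only the spread between samples.

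Genes with at least 10 counts in 2 or more of the 7 livers (5377) were tested with edgeR 4.0.16 in R 4.3.3: a quasi-likelihood fit (robust, TMM scaling) on genotype alone (5 residual degrees of freedom) and its F test, Benjamini-Hochberg adjusted over all of them, with a threshold of 0.05. The fit was tested on simulated data. Otub2, below the filter, was tested by exact permutation of CPM. Lists are described by counts and medians beside those of all genes, with no test of a list. The 50 lists, members and tests were chosen with earlier results of these data known. Named genes are Otub1, Otub2, the 5 with the lowest p in each direction (predicted genes and receptor segments left out) and, for each list described, up to 4 tested members with the lowest p and 3 with the highest mean CPM; others are said to be singled out, and some genes are not reported here. Positions, overlaps, lengths and GC content come from GENCODE M21 (mm10), which matched 5319 tested genes. A gene's antisense or overlapping partner cannot be told apart where strand was not counted.

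Alternatives were DESeq2 1.42.0, its size factors in edgeR, scaling by total counts, TMM without acute-phase and Mup genes, no filter beyond 1 count, filterByExpr, a mean of at least 10 CPM, no robust fit, voom with quality weights (limma 3.58.1), the replicate number as a block, leaving out each library and, chosen after the depths were seen, thinning all libraries to the smallest total. The pancreas table was not used here.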

Additional observations from a re-analysis of the deposited data

Results flagged for a closer look

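Among the 5 HET livers, 15 of 157 sets of values (120 genes and 37 list shares) had a single liver farther from the nearest other than Dixon's 95% limit of 0.71 of the range allows. That is 9.55%, where chance flags about 1 in 20. HET 5, the deepest library, was the distant liver in 10 of them.

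HET 5 was high for Ttr (17252 CPM, next 11747), Apoh (2096 CPM, next 1048), Serpina1c (10198.5 CPM, next 5694), Fth1 (2714 CPM, next 1326), Adh1 (2969 CPM, next 1523) and Jund (149 CPM, next 61.4). It was low for Uqcrq (1377 CPM, next 2499) and for Gm10800, a predicted gene, with 0 CPM where the next was 853.9. HET 5 also had the highest shares of antioxidant genes (1.70% of counts, next 1.27%) and of pericentral genes (1.90%, next 1.33%).

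HET 1 was high for Hamp2 (229 CPM, next 91.3) and for the list of Xist and Y-linked genes (0.00186% of counts, from 10 counts, next 0.000756%). HET 3 had the highest share of NF-kB targets and regulators (0.0905%, next 0.0498%). HET 4 was low for Uroc1 (22.7 CPM, next 68.0), and HET 2 was low for Hpd (2368 CPM, next 2854).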

How the results depend on the processing

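The count of genes called, 0 by edgeR, was also 0 with DESeq2 size factors, total counts, TMM without acute-phase and Mup genes, filterByExpr and no robust fit. It was 11 with DESeq2's own test (1565 adjusted p values not given), 7 with voom and 3 of 2425 after thinning. With no filter 57 of 18552 were called, 28 higher and 29 lower. With a mean of at least 10 CPM 6 of 5823 were called, 1 higher and 5 lower, and Cyp2a4 was among the lower. Leaving out single libraries gave 0 to 5: Malat1 without WT 1, Hamp2 without HET 1, and Hint1, Jund, Mup5, Mup18 and Wfdc21 without HET 5. With the replicate block 35 genes were called, 26 higher and 9 lower. Only numbers 1 and 2 occur in both genotypes, and the deviations of samples with the same number had r = −0.03 and −0.04. With 2 WT livers, the deviations of WT 1 and WT 2 mirror each other. These r values therefore cannot show whether samples with the same number were paired. No filter moved the median log2 fold change of genes in both fits by 0.16, and no scaling moved it by over 0.1. 

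Of 120 named genes, 104 kept their direction in every alternative that tested them, and 59 moved by over 1.5 times or changed sign when a single library was left out. The other 16 changed direction in at least 1 alternative. Under total counts Alb was at −0.0199, Trf −0.0338, C3 −0.0215 and Pck1 −0.0434 (log2). Voom put Alb at −0.0526, Pck1 at −0.0314 and Dbp at 0.28. No filter put Apoe at 0.10, Adh1 at 0.0252 and Dbp at 0.12, and a mean of at least 10 CPM put Dbp at 0.0336. The block gave C3 −0.14, Cyp1a2 −0.0626 and Dbp 0.38, and thinning Pck1 −0.0476 and Dbp 0.0197. Without single libraries the log2 fold changes ran from −0.31 to 1.41 (Otub1), −0.21 to 0.37 (Alb), −0.0403 to 0.20 (Trf), −0.24 to 0.13 (Apoe), −0.52 to 0.0153 (Apoa2), −0.14 to 0.58 (Hp), −0.0349 to 0.18 (C3), −0.0207 to 0.84 (Serpina1c), −0.0928 to 0.83 (Fth1), −0.30 to 2.27 (Hamp), −0.0693 to 0.39 (Ass1), −0.077 to 0.19 (Pck1), −0.50 to 0.15 (mt-Cytb), −0.68 to 1.46 (Dbp), −0.57 to 0.36 (Adh1) and −0.0974 to 0.70 (Cyp1a2). The Otub2 difference ran from −4.64 to 1.80 CPM. The cause was not tested. In WT 1, the shallowest library, a count of 0 allows up to 19.3 CPM, so lower levels could be missed there.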

Other observations

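Over 1294 genes with a mean of at least 100 CPM, the median SD of log2(CPM + 1) among the 5 HET livers was 0.37. The highest SDs were those of Gm10800 (4.48), Mup8 (4.37), Saa2 (3.21), Gm10801 (3.20) and Gm21738 (3.13), of which those starting with Gm are predicted genes. The genes in this paragraph were singled out after their values were seen. Saa2, a serum amyloid, had 322 and 534 CPM in the WT livers and 299.7, 1942, 9391, 325 and 24.3 in the HET livers. Saa3 had 64.4 and 117 CPM in the WT livers and 39.1, 134, 491, 45.3 and 20.8 in the HET livers. Mt2, a metallothionein that metals and glucocorticoids induce, had 148 and 712 CPM in the WT livers and 452, 211, 1331, 113 and 56.3 in the HET livers. Gadd45g, a growth arrest and stress gene, had 213 and 93.4 CPM in the WT livers and 244, 29.1, 37.3, 351 and 109 in the HET livers. Both Saa genes were highest in HET 3 and HET 2, and HET 5 was lowest for Saa2, Saa3 and Mt2.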
